A study of Mus musculus with 5 samples.

Results

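Aminoacyl-tRNA synthetases are the enzymes that join each amino acid to its tRNA, the step that supplies ribosomes with charged tRNA. The 36 synthetase genes described here were chosen by gene symbol, and all 36 were found among the 22869 gene symbols of the count table. Of these, 20 encode cytosolic enzymes and 16, whose symbols end in 2, encode mitochondrial enzymes. A gene with several transcript rows was represented by its row of highest mean count, and all 36 passed the filter on low counts.

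RNA was sequenced from cells laser-captured out of the intervillus region, the proliferating epithelium between villi, in the proximal jejunum of mice at postnatal day 0. The 3 control libraries, numbered 1, 2 and 3, carry the genotype label Dnmt1 L/+. The 2 mutant libraries, numbered 4 and 6, are labelled Dnmt1 L/L; VillinCre, in which the Villin promoter drives Cre recombinase in gut epithelium and Dnmt1, the maintenance DNA methyltransferase, is the target. Areas negative for Ki67, a protein of cycling cells, were captured from mutants and Ki67-positive areas from littermate controls, so the choice of areas and the loss of Dnmt1 cannot be told apart. The tissue was fixed in methacarn and embedded in paraffin, and 2.3 to 33.3 ng of RNA per sample was amplified before sequencing as single reads of 100 bp.

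The 2 groups of synthetases have different jobs. Cytosolic synthetases serve the translation of nuclear genes, and 8 of the 20 sit together in the multisynthetase complex. Mitochondrial synthetases are encoded in the nucleus, imported, and serve the few proteins translated from mitochondrial DNA. Many cytosolic synthetase genes are known targets of ATF4, a transcription factor whose own translation increases when a kinase phosphorylates the initiation factor eIF2alpha, as in amino acid shortage or endoplasmic reticulum stress. The mitochondrial set and a minority of the cytosolic set are not usually counted among these targets.

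With a single row kept per gene, controls held 10530200 to 13356901 reads and the mutants 8730268 and 10260760. Dnmt1 had 2240, 2163 and 1351 counts in controls 1, 2 and 3 and 427 and 525 counts in mutants 4 and 6. The mutants were below every control, the direction of the labels. Libraries of the same group differed by more than sampling noise, with a chi-square per gene of 10.4 to 26.8 where about 1 would be noise. Separate mice are not stated for the libraries, and p-values therefore measure a spread that may be technical. The 4 Y-linked genes Ddx3y, Eif2s3y, Kdm5d and Uty together had 2710 to 3160 counts in each control and 4 and 3 counts in mutants 4 and 6. Presence of Y-linked transcripts therefore separates the groups exactly as genotype does, and the 2 cannot be told apart in any comparison below.

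Levels are given as CPM, counts scaled to the library's total over the rows passing the filter on low counts, after TMM normalization. TMM is the trimmed mean of M-values, which corrects for differences in composition. Differences are log2 fold changes of mutants over controls with their standard errors (SE), and adjusted p means the quasi-likelihood test of edgeR with Benjamini-Hochberg adjustment over all 19353 rows tested. A gene was called where this value was under 0.05. By this rule 6.11% of the 14572 genes tested were called higher in the mutants and 4.17% lower. Mki67, which encodes Ki67, had 927, 1022 and 773 CPM in controls and 511 and 506 CPM in mutants.

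Few cytosolic synthetases passed the test, and those that did were higher in the mutants. Of 20 genes, 4 rose, 0 fell and 16 did not pass the test. The 4 that rose were Cars, Gars, Aars and Vars, which charge cysteine, glycine, alanine and valine. Their rises lay between 41.5% and 54.6% of the control level. Both mutants lay above all controls in 10 cytosolic genes and below them in 4, where 21.7% of all genes tested lay above and 21.8% below. The median log2 fold change over the 20 genes was 0.14, against -0.0072 over all genes tested. An unadjusted p under 0.05 was reached by 7 higher and 2 lower genes, where 25.6% of all genes tested reached it, and DESeq2 called 5 higher and 0 lower. The number of cytosolic genes called higher was 0 without control 1, 0 without mutant 4, 0 without mutant 6, 2 without control 3 and 5 without control 2.

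Most mitochondrial synthetases had log2 fold changes below 0, but few passed the test. Of 16 genes, 0 rose, 1 fell and 15 did not pass. The 1 lower call is 6.25% of the 16, near the 4.17% of all genes called lower. The gene that fell was Iars2, the mitochondrial isoleucine enzyme. The log2 fold change was below 0 in 15 of the 16, against 50.8% of all genes tested, and the exception was Lars2. This count depends on values near 0, such as Sars2 at -0.0008. Without control 2, Sars2, Rars2, Nars2 and Cars2 were also above 0, and on log2(FPKM + 1) Rars2, Nars2 and Aars2 were. The median of the 16 genes in the main fit was -0.28. Both mutants lay below all controls in 6 genes and above them in 0. An unadjusted p under 0.05 was reached by 3 lower and 0 higher of the 16 genes, a smaller share than the 25.6% of all genes, and DESeq2 also called 1 lower and 0 higher. Iars2 no longer passed when control 1, control 2, mutant 4 or mutant 6 was left out (0 called lower each time), and without control 3 Lars2 was called higher. The plot of all members by library shows the displacement of the mutants to the right for the upper cytosolic genes and to the left for most mitochondrial ones.

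**Figure D1:**
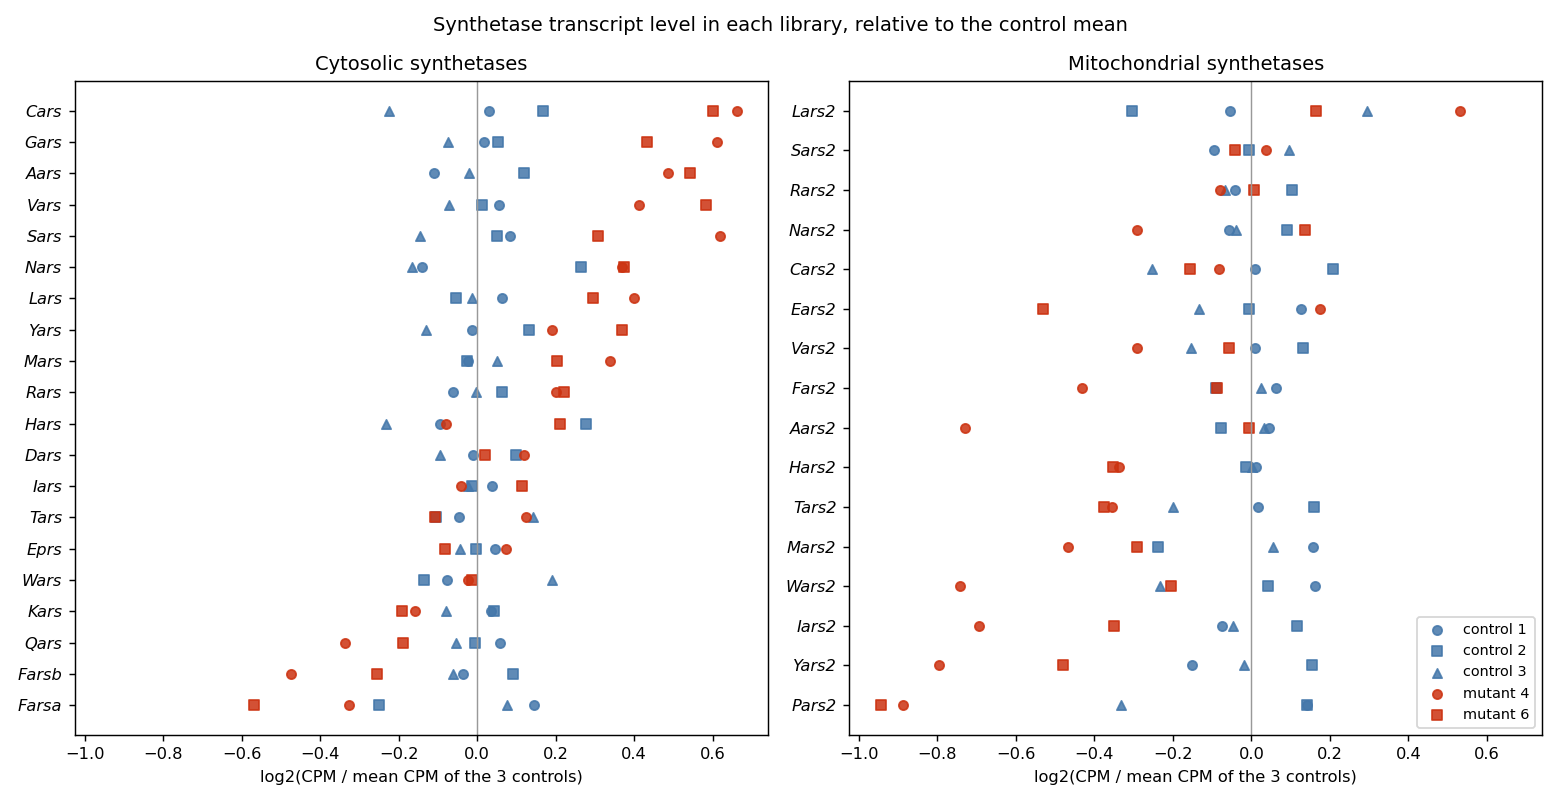
Level of each synthetase transcript in each library, as log2 of CPM over the mean CPM of the 3 controls (x axis), for 20 cytosolic genes (left) and 16 mitochondrial genes (right). Blue symbols are controls 1 to 3 and red symbols mutants 4 and 6; both mutants lie right of all controls in 10 cytosolic genes and left of them in 6 mitochondrial genes.

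Cars had 22.5, 24.7 and 18.9 CPM in controls 1, 2 and 3 and 34.9 and 33.4 CPM in mutants 4 and 6. Both mutants stood above every control, and the log2 fold change was 0.63 ± 0.17 (SE; edgeR adjusted p = 0.0309). Per transcript length Cars was the lowest cytosolic synthetase in controls, at 5.97 ± 0.423 FPKM (sequenced fragments per unit of transcript length and sequencing depth; SD, n = 3). Gars, whose single gene also supplies the mitochondrial glycine enzyme, had 85.7, 87.8 and 80.4 CPM in controls and 129 and 114 CPM in mutants. The groups did not overlap, and the difference was 0.52 ± 0.13 (edgeR adjusted p = 0.018).

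Aars, the alanine enzyme, had 68.7, 80.5 and 73.1 CPM in controls and 104 and 108 CPM in mutants. The mutants were close to each other and above all controls (log2 fold change 0.52 ± 0.13; edgeR adjusted p = 0.021). The gene models that carry the Aars transcript's RefSeq ID share 1326 exonic bases, 23.1% of their length, with Exosc6 on the same strand. Exosc6 itself was at -0.15 log2 units (edgeR adjusted p = 0.69), opposite in sign to Aars. Vars, the valine enzyme, had 56.0, 54.4 and 51.3 CPM in controls and 71.7 and 80.8 CPM in mutants, without overlap (log2 fold change 0.50 ± 0.13; edgeR adjusted p = 0.0284).

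Sars, the serine enzyme, came next and missed the threshold. It had 52.5, 51.3 and 44.8 CPM in controls and 76.0 and 61.3 CPM in mutants, and its difference was 0.47 ± 0.15 log2 units (edgeR adjusted p = 0.0594). It passed with DESeq2 (adjusted p = 0.0487). Its value was 0.61 without mutant 6 and 0.30 without mutant 4, so mutant 4 carried more of the difference. Nars, the asparagine enzyme and the most abundant cytosolic synthetase per length (72.0 ± 17.8 FPKM in controls; SD, n = 3), had 189, 251 and 186 CPM in controls and 270 and 271 CPM in mutants. Control 2 was nearer to the mutants than to the other controls. The log2 fold change was 0.37 ± 0.15 (edgeR adjusted p = 0.135), and without control 2 it was 0.54 and passed (adjusted p = 0.0158). Lars, the leucine enzyme and a cytosolic leucine sensor, had 63.5, 58.5 and 60.1 CPM in controls and 80.1 and 74.5 CPM in mutants (0.35 ± 0.13; edgeR adjusted p = 0.105).

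Yars, Mars and Rars, for tyrosine, methionine and arginine, also had both mutants above all controls, but with smaller differences. Yars had 59.6, 65.9 and 55.0 CPM in controls and 68.7 and 77.7 CPM in mutants, so mutant 4 was only just above control 2. Their log2 fold changes were 0.28 ± 0.14, 0.27 ± 0.13 and 0.21 ± 0.12, and none of the 3 passed the edgeR test (adjusted p = 0.215, 0.219 and 0.302). Mars shares 67 exonic bases with Ddit3 on the opposite strand. The sources used here do not give whether counting used strand, and reads from such shared bases cannot be assigned to a gene with certainty.

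The middle of the cytosolic set had overlapping groups. Hars, Dars, Iars, Tars, Eprs and Wars had log2 fold changes between -0.02 and 0.07. Eprs, a fusion enzyme that charges both glutamate and proline, had 174, 168 and 163 CPM in controls and 177 and 159 CPM in mutants, so one mutant stood above and the other below all controls. Tars, the threonine enzyme, had 71.6, 68.7 and 81.6 CPM in controls and 80.6 and 68.6 CPM in mutants. Iars, the cytosolic isoleucine enzyme, had 121, 117 and 116 CPM in controls and 115 and 128 CPM in mutants. Wars, the tryptophan enzyme, known for its induction by interferon gamma, had 59.2, 56.9 and 71.3 CPM in controls and 61.4 and 61.9 CPM in mutants. The sign of the difference in Hars, Iars, Tars, Eprs and Wars changed with the processing or with the libraries included.

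At the lower end stood Kars, Qars and both subunits of the cytosolic phenylalanine enzyme. Farsa encodes its alpha subunit and Farsb its beta subunit. Farsb had 153, 168 and 151 CPM in controls and 113 and 132 CPM in mutants, all below the controls (log2 fold change -0.36 ± 0.13; edgeR adjusted p = 0.101). Farsa had 28.2, 21.4 and 26.9 CPM in controls and 20.3 and 17.2 CPM in mutants, with mutant 4 just under control 2 (-0.44 ± 0.19; edgeR adjusted p = 0.159). In CPM both subunits had their mutants below all controls, and neither passed the test. In FPKM Farsa overlapped, with 17.1, 10.0 and 11.1 in controls and 11.6 and 11.3 in mutants, and its value on log2(FPKM + 1) was -0.11. In FPKM the beta subunit was at 68.4 ± 11.0 and the alpha subunit at 12.8 ± 3.82 in controls (SD, n = 3). Qars, the glutamine enzyme, had 84.5, 80.8 and 78.1 CPM in controls and 64.2 and 71.2 CPM in mutants (-0.26 ± 0.13; edgeR adjusted p = 0.225). Kars, the lysine enzyme of both compartments, had 111, 111 and 102 CPM in controls and 96.8 and 94.4 CPM in mutants (-0.18 ± 0.13; edgeR adjusted p = 0.404).

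The cytosolic genes were also counted by a list of known ATF4 targets. That list, drawn from general knowledge of the ATF4 pathway, holds 13 of the 20 cytosolic genes. It was chosen with earlier results of these data known, so the contrast below is descriptive and not independent of them. All 4 that rose were on it, and 0 of its 13 members fell. Its median log2 fold change was 0.35, with 11 of 13 values above 0 and both mutants above all controls in 9. Of all genes tested, 6.11% were called higher and 4.17% lower, and 50.8% had a value below 0. Both mutants lay above all controls in 21.7% of all genes and below them in 21.8%. The other 7 cytosolic genes, Dars, Farsa, Farsb, Hars, Kars, Qars and Rars, had 0 calls in either direction, a median of -0.18, and both mutants above all controls in 1 gene and below them in 4. At an unadjusted p under 0.05 these 7 had 0 higher and 2 lower genes, where 25.6% of all genes tested reached it, and DESeq2 called none. The difference between the 2 lists was not tested. Within the 13, Iars, Tars, Eprs and Wars stood apart from the rest, at -0.02 to 0.04.

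**Figure D2:**
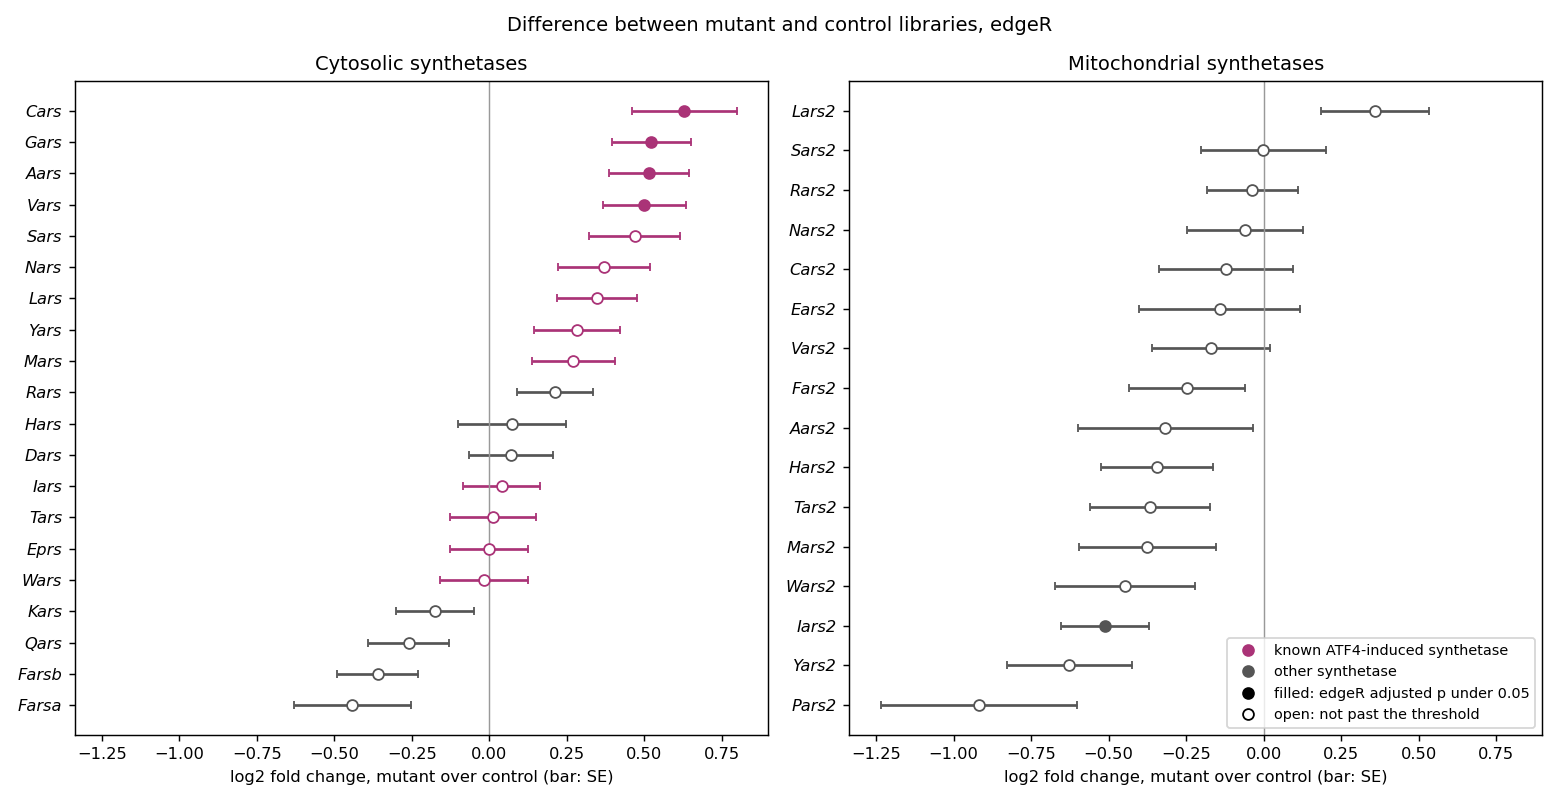
Log2 fold change of mutants over controls with its SE (bars) for each cytosolic (left) and mitochondrial (right) synthetase, ordered by value. Purple marks the 13 listed ATF4-induced genes and filled points the 5 genes with an edgeR adjusted p under 0.05; the lowest cytosolic genes, Kars, Qars, Farsb and Farsa, are all outside the list.

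The levels of these lists were also summed within each library. The 13 listed genes together had 1073, 1134 and 1054 CPM in controls and 1332 and 1296 CPM in mutants. The other 7 had 613, 646 and 593 CPM in controls and 564 and 591 CPM in mutants. The ratio of the first sum to the second was 1.75, 1.76 and 1.78 in controls 1 to 3 and 2.36 and 2.19 in mutants 4 and 6. The ratio hardly varied among the controls (SD 0.0146) and was 1.29 times as high in the mutants on average. This ratio is formed within a library and does not depend on the normalization between libraries.

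Start-site sequences are shown because ATF4 binds, with C/EBP partners, a composite element known as the CARE. Its core was searched as TGATGNAA on both strands, in windows of 300 bases from 250 before to 50 after the annotated start in RefSeq's promoter table (build GRCm38.p6, not the build mm9 of the counts). Of the 36 members, 27 had a window. Cars, Hars, Hars2, Lars, Nars, Pars2, Rars, Vars and Wars had none. A match stood in 5 of the 8 listed ATF4 targets with a window (62.5%), in 0 of the 5 other cytosolic genes and in 0 of the 14 mitochondrial genes, against 4.51% of the 27025 genes in the table. The stricter TGATGCAA, a special case of the same motif, stood in 4 of the 8 and in 1.03% of all genes. The list was made of genes known to respond to ATF4, so its share is not independent of the motif. Of the genes with a match, 4 are printed over 30 bases, 5′ to 3′ on the gene's strand, with the match in capitals.
Gars, chr6:55037960-55037989, plus strand: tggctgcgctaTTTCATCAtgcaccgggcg
Iars, chr13:49682127-49682156, plus strand: actgtcagtaTTGCATCAcctccagacgcg
Tars, chr15:11399655-11399684, minus strand: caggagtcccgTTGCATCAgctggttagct
Yars, chr4:129189896-129189925, plus strand: cgagctcagcTGATGCAAcccgacgggact

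The first base of the match lies at -30 in Gars and -15 in Tars, counted from the start site, and at 8 and 4 bases into the transcript in Iars and Yars. In Gars, Iars and Tars the letters read on the gene's strand are the reverse complement of the motif. Of the 4 genes printed, Gars rose, and Yars, Iars and Tars did not pass the test, at 0.28, 0.04 and 0.01 log2 units. Aars, the other gene with a match, also rose and is not printed. Its matches begin at -112 and at 10 bases into the transcript. No match was found in Sars, Mars or Eprs, and no match says only that these letters are absent from this window. For comparison, the 150 bases before the start are printed for Gars, which rose, and for Farsb, whose mutants lay below all controls and which has no match.
Gars, chr6:55037851-55038000, plus strand: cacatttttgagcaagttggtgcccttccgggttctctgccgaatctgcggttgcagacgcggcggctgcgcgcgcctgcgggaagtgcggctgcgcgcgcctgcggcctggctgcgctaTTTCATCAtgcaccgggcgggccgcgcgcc
Farsb, chr1:78488898-78489047, minus strand: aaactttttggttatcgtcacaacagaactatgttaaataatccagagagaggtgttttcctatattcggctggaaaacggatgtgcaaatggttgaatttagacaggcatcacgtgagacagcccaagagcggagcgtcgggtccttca

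Membership of the multisynthetase complex was also examined. Its 8 enzymes, Dars, Eprs, Iars, Kars, Lars, Mars, Qars and Rars, had 0 calls with edgeR or DESeq2, 1 unadjusted p under 0.05 (Lars) and a median of 0.05. All 4 rises were among the 12 enzymes outside the complex, whose median was 0.33. Of all genes tested, 6.11% were called higher, 4.17% lower, and 25.6% had an unadjusted p under 0.05. At these shares few calls would fall among 8 genes, and a difference by complex membership was not tested. The lists overlap in their content, since Aars, Cars, Gars, Nars, Sars, Tars, Vars, Wars and Yars are both outside the complex and on the ATF4 list. By catalytic class, 2 of 9 class I genes and 2 of 10 class II genes rose, with medians of 0.27 and 0.07; Eprs, which has a domain of each class, was left out of this count.

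In the mitochondrial set the level per length was lower, with a median of 6.11 FPKM over 16 genes in controls against 21.7 FPKM over 20 cytosolic genes. Iars2 (57.9 ± 7.27 FPKM; SD, n = 3) and Lars2 (54.1 ± 8.47 FPKM) were far above the others, the next being Rars2 at 18.0 ± 1.49 FPKM. The lowest was Aars2, at 1.77 ± 0.156 FPKM. Lower counts gave wider errors: the SE of the log2 fold change had a median of 0.20 in mitochondrial and 0.13 in cytosolic genes, and the lowest count of any mitochondrial gene in a library was 39.

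Iars2 had 204, 233 and 208 CPM in controls and 133 and 168 CPM in mutants. Both mutants were below all controls, mutant 4 more so, and the gene fell by 0.51 ± 0.14 log2 units (edgeR adjusted p = 0.0372). Its gene model shares 2034 exonic bases, 37.2% of its length, with Rab3gap2 on the opposite strand. Rab3gap2 had a mean of 1172 counts and was at -0.16 log2 units (edgeR adjusted p = 0.476). Yars2, the mitochondrial tyrosine enzyme, had 18.1, 22.4 and 19.9 CPM in controls and 11.6 and 14.4 CPM in mutants, without overlap (-0.63 ± 0.20; edgeR adjusted p = 0.066). It passed when low counts were not filtered (adjusted p = 0.0406).

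Pars2, the mitochondrial proline enzyme, had the lowest log2 fold change of all 36 members. Its counts were 128, 119 and 72 in controls and 39 and 43 in mutants, or 7.05, 7.04 and 5.07 CPM against 3.45 and 3.32 CPM. The groups did not overlap, but the error was wide (-0.92 ± 0.32; edgeR adjusted p = 0.0841). In deposited FPKM it was 1.94 ± 0.113 in controls (SD, n = 3) and 0.748 ± 0.0106 in mutants (SD, n = 2).

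Mars2 had 15.2, 11.6 and 14.2 CPM in controls and 9.91 and 11.2 CPM in mutants, with mutant 6 close to control 2. Hars2, Tars2 and Mars2, for histidine, threonine and methionine, also had both mutants below all controls, with log2 fold changes of -0.34 ± 0.18, -0.37 ± 0.19 and -0.37 ± 0.22 and edgeR adjusted p of 0.246, 0.248 and 0.306. In Hars2 the libraries of each group were close together, with 364, 333 and 283 counts or a mean of 19.9 ± 0.169 CPM (SD, n = 3) in controls and 15.7 and 15.6 CPM in mutants. Hars2 lies beside its cytosolic counterpart Hars on the opposite strand, and their models share 195 exonic bases. Hars itself had 40.7, 52.7 and 37.0 CPM in controls and 41.1 and 50.3 CPM in mutants.

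The remaining mitochondrial genes had overlapping groups. Wars2, Aars2, Fars2, Vars2, Ears2, Cars2, Nars2, Rars2 and Sars2 had log2 fold changes from -0.45 to -0.0008, and none passed. The mutants often disagreed: Aars2 had 4.87 CPM in mutant 4 and 8.02 CPM in mutant 6, against 7.63 to 8.31 CPM in controls, and Ears2, the mitochondrial glutamate enzyme, had 11.3 and 6.94 CPM, against 9.15 to 11.0 CPM. Wars2, the tryptophan enzyme, had 18.7, 17.2 and 14.2 CPM in controls and 10.0 and 14.5 CPM in mutants. Nars2, the asparagine enzyme, had 20.9 to 23.2 CPM in controls and 17.8 and 23.9 CPM in mutants, on both sides of the controls. Sars2, the serine enzyme, had 12.3 to 14.1 CPM in controls and 13.5 and 12.8 CPM in mutants. Lars2, the leucine enzyme, had 260, 218 and 330 CPM in controls and 390 and 302 CPM in mutants (0.36 ± 0.17; edgeR adjusted p = 0.21). Control 3 was above mutant 6, and without control 3 the value was 0.53 (adjusted p = 0.0418).

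Lars2 weighs heavily in any sum over the mitochondrial set. With it, the set summed to 706, 701 and 767 CPM in controls and to 715 and 684 CPM in mutants. Without it, the other 15 genes had 446, 483 and 436 CPM in controls and 326 and 382 CPM in mutants, and the mutant mean was 0.777 of the control mean. The 20 cytosolic genes together had 1686, 1780 and 1647 CPM in controls and 1896 and 1887 CPM in mutants, a mutant mean 1.11 times the control mean.

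For 13 amino acids the members hold a cytosolic and a mitochondrial gene whose symbols differ only by the final 2, and these pairs were compared within each library. The cytosolic gene had the higher log2 fold change in 12 of the 13 pairs, with a median difference of 0.47 log2 units. Within libraries, both mutants had a ratio above all controls in 9 pairs and below them in 0. The ratios of the groups overlapped for Wars, Hars, Tars and Lars. No test was made of these counts, and no share over other gene pairs was computed. They leave out phenylalanine, whose cytosolic enzyme has separate genes for its subunits, and the fused Eprs. In phenylalanine the order was the other way, with Farsa at -0.44 and Farsb at -0.36 against -0.25 in Fars2. Eprs, at -0.0026, was above both Ears2 (-0.14) and Pars2 (-0.92). Among the 13, the largest differences were in tyrosine (0.91), alanine (0.83) and cysteine (0.75). The CPM ratio of Yars to Yars2 was 3.29, 2.95 and 2.77 in controls and 5.93 and 5.39 in mutants. That of Cars to Cars2 was 1.64, 1.57 and 1.64 in controls and 2.70 and 2.72 in mutants. In alanine the mutants themselves differed, with a ratio of Aars to Aars2 of 21.3 in mutant 4 and 13.5 in mutant 6, against 8.26 to 10.6 in controls.

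Per length, the mitochondrial transcript was above the cytosolic one in isoleucine, at 57.9 against 23.4 FPKM in controls, in leucine, at 54.1 against 14.3 FPKM, and in cysteine, at 6.84 against 5.97 FPKM. The ratio of Iars to Iars2 was 0.596, 0.503 and 0.561 in controls and 0.866 and 0.761 in mutants, and the pair moved through Iars2, since Iars differed by 0.04 log2 units. In the order of the log2 fold changes, leucine was the exception among the 13 pairs. Lars and Lars2 had nearly the same log2 fold change, 0.35 and 0.36, and their ratio was 0.182 to 0.268 in controls and 0.206 and 0.247 in mutants.

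**Figure D3:**
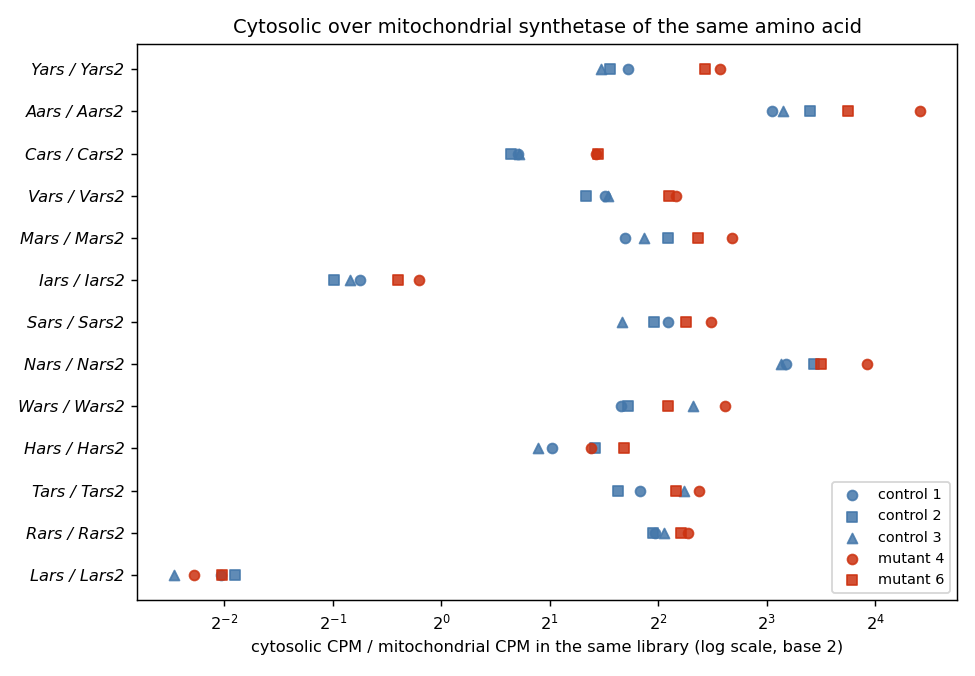
CPM of the cytosolic gene over CPM of the mitochondrial gene for the same amino acid, in each of the 5 libraries (x axis, log scale with base 2), for the 13 pairs matched by symbol, ordered by the difference of their log2 fold changes. Both mutants (red) lie right of all controls (blue) in 9 pairs, as in Yars over Yars2 with 5.93 and 5.39 against 2.77 to 3.29. The groups overlap in the pairs of Wars, Hars, Tars and Lars.

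Other genes of tRNA charging showed no call. Of 16 helper genes found, 0 rose and 0 fell with edgeR and with DESeq2, with a median of -0.25; 2 higher and 3 lower genes had an unadjusted p under 0.05. Of the scaffold proteins of the multisynthetase complex, Eef1e1 (p18) had 18.4, 19.1 and 22.2 CPM in controls and 25.3 and 28.5 CPM in mutants (0.44 ± 0.17; edgeR adjusted p = 0.133). Aimp2 (p38) had 43.4, 49.1 and 43.9 CPM in controls and 34.2 and 36.9 CPM in mutants (-0.35 ± 0.15; edgeR adjusted p = 0.146), and Aimp1 (p43) overlapped between groups (0.07 ± 0.15). Xpot, the tRNA exporter of the nucleus and a known ATF4 target, had 65.8, 69.4 and 72.2 CPM in controls and 83.9 and 95.1 CPM in mutants (0.37 ± 0.13; edgeR adjusted p = 0.0874).

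Of the mitochondrial helpers, none passed. Mtfmt, which formylates the mitochondrial initiator tRNA, was at -0.55 ± 0.19 (edgeR adjusted p = 0.0795). Pet112l, a subunit of the amidotransferase that makes mitochondrial glutaminyl-tRNA from the product of Ears2, was at -0.54 ± 0.24 (edgeR adjusted p = 0.172). Of 76 mitochondrial ribosomal protein genes, 0 rose and 4 fell (Mrpl3, Mrps15, Mrps25 and Mrps27), with a median of -0.06. These 4 are 5.26% of the list, near the 4.17% of all genes called lower. An unadjusted p under 0.05 was reached by 0 higher and 14 lower genes, a smaller share than the 25.6% of all genes. DESeq2 called 0 higher and 4 lower. None of 10 mitochondrial translation factors was called by edgeR or DESeq2, 0 had an unadjusted p under 0.05, and the median was -0.13. Whether the mitochondrial synthetases differ from these lists was not tested.

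Of 30 cytosolic initiation, elongation and termination factors, 0 rose and 2 fell, with a median of -0.08. The lower calls were 6.67% of the 30, near the 4.17% of all genes called lower. The 2 were Pabpc1, the poly(A)-binding protein, at -0.53 ± 0.13 (edgeR adjusted p = 0.0192), and Eef1g, a subunit of elongation factor 1, at -0.48 ± 0.14 (edgeR adjusted p = 0.0444). DESeq2 called 0 higher and 3 lower. An unadjusted p under 0.05 was reached by 1 higher and 3 lower, a smaller share than the 25.6% of all genes.

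Other genes of the ATF4 pathway were counted in the same fit, and their difference from the synthetases was not tested. Of 32 listed genes without synthetases, 31 were tested, 12 rose, 1 fell and 18 did not pass, with a median of 0.59. These shares, 38.7% and 3.23%, stand beside 6.11% and 4.17% of all genes. Atf4 itself had 115, 129 and 123 CPM in controls and 166 and 179 CPM in mutants, and its rise of 0.49 ± 0.13 log2 units (edgeR adjusted p = 0.0229) was close in size to those of Gars, Aars and Vars. Asns, asparagine synthetase, had 28.4, 31.0 and 32.8 CPM in controls and 99.0 and 92.1 CPM in mutants (1.64 ± 0.14; edgeR adjusted p = 4.98e-06). Trib3, a pseudokinase that restrains ATF4, had 7 to 11 counts in each control and 166 and 121 counts in mutants 4 and 6 (4.33 ± 0.37).

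Chac1, which degrades glutathione, had 2, 3 and 1 counts in controls and 138 and 114 in mutants (6.34 ± 0.47). Slc7a11, the cystine importer, had 24 to 30 counts in controls and 172 and 156 in mutants (3.06 ± 0.29). Atf5, Psat1, Psph, Mthfd2, Gpt2, Eif4ebp1 and Vldlr also rose. Cth, an enzyme of cysteine synthesis, was the gene that fell (-2.10 ± 0.48; edgeR adjusted p = 0.0135), with 4.90, 19.3 and 15.9 CPM in controls and 2.57 and 3.63 CPM in mutants. Ddit3, which encodes CHOP and lies beside Mars, had 11.1, 12.8 and 10.2 CPM in controls and 18.1 and 17.3 CPM in mutants (0.64 ± 0.20; edgeR adjusted p = 0.0612). Leaving out control 1, mutant 4 or mutant 6 reduced the number called higher to 7, 6 and 7. None of the 4 eIF2alpha kinases was called by edgeR or DESeq2, and 0 had an unadjusted p under 0.05. In CPM both mutants lay above all controls in 2 of the 4 and below them in 1, where 21.7% and 21.8% of all genes did. These are transcript levels, and kinase activity was not measured.

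**Figure D4:**
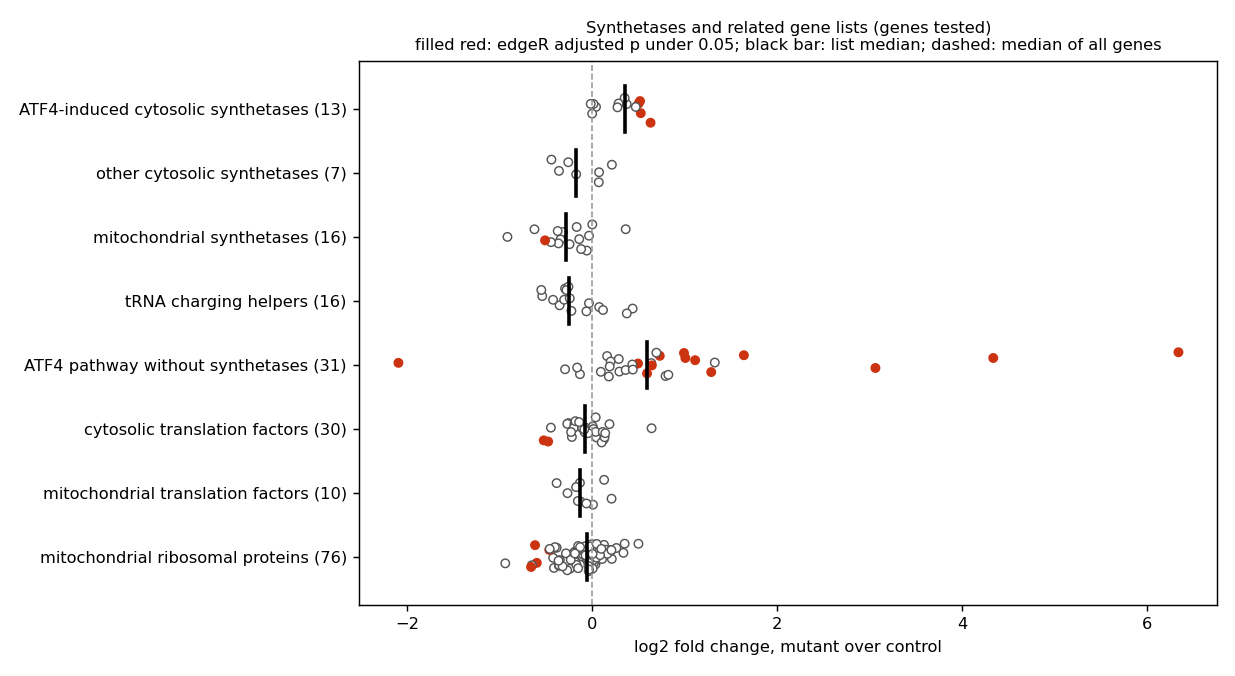
Log2 fold change of mutants over controls (x axis) for each gene tested of 8 lists, with the number tested in brackets; filled red points have an edgeR adjusted p under 0.05, black bars are list medians and the dashed line is the median of all genes. The listed ATF4-induced synthetases have a median of 0.35 and no point above 0.63, whereas the ATF4 pathway without synthetases reaches 6.34.

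Markers of other cells and of differentiation also moved between the groups. The calls below stand beside 6.11% of all genes tested called higher and 4.17% called lower. Of 13 mesenchyme and smooth muscle markers, 7 rose (Col1a1, Col1a2, Col3a1, Lum, Pdgfra, Acta2 and Myh11) and 0 fell, and their summed level was 1219 to 1339 CPM in controls and 2003 and 1864 CPM in mutants 4 and 6. Of 12 markers of the absorptive enterocytes that line villi, 6 rose (Apoa1, Apoa4, Alpi, Sis, Krt20 and Slc5a1) and 0 fell, with sums of 28354 to 44173 CPM and 55601 and 56134 CPM. Of 9 general epithelial markers, 1 rose (Krt18) and 1 fell (Cdx2), with sums of 5390 to 5844 CPM and 5259 and 5322 CPM. Both mutants were below all controls in 5 of these 9 markers, whose median was -0.22. The immune list summed to 185 to 204 CPM and 360 and 304 CPM with 1 of 8 tested higher (Csf1r), the endothelial list to 154 to 183 CPM and 215 and 198 CPM with 0 of 8 called (2 unadjusted p under 0.05, and 0 by DESeq2), and the neural list to 21.9 to 32.7 CPM and 54.5 and 57.2 CPM with 2 of 5 higher (Uchl1 and S100b). Of 8 goblet and endocrine markers tested, 1 rose (Chga), with sums of 1000 to 1531 CPM over all libraries, and of 4 erythroid markers tested, 1 fell (Alas2), with sums of 45.0 to 53.4 CPM and 59.4 CPM in each mutant. The exocrine pancreas list, cells that make much protein, summed to 51.3 to 94.2 CPM and 206 and 196 CPM, with 1 of 4 tested higher. Most of the sum was Ctrb1, at 60.7 CPM in controls and 190 CPM in mutants on average, while Pnlip and Amy2a5 had 0 counts in every library. The part of these cells, and of the choice of areas by Ki67, in the synthetase differences was not tested. In tissue RNA, fewer cells of a type and less RNA per cell cannot be told apart.

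Where a member has several transcript rows the choice of row mattered little. The 11 members with more than 1 row kept the sign of their log2 fold change in all rows except Dars and Wars, both near 0. In Dars the second row had a mean of 44.4 counts against 835.2 in the row used. On the authors' deposited FPKM values both mutants lay above all controls in 8 cytosolic and 0 mitochondrial genes, and below them in 2 and 6. The share of all genes without overlap in FPKM was not computed, so these counts have no background beside them. On log2(FPKM + 1), limma called 0 of the 36 members in either direction, where it called 0.476% of all genes higher and 0.0638% lower.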

How the data were processed

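RNA from 5 libraries (3 control, 2 mutant) was measured by sequencing. The authors deposited raw read counts per transcript and, separately, FPKM values per transcript for the same libraries. The submitters' processing notes name the build mm9 and edgeR; the sources used here do not give the aligner, the counting program or the use of strand. A deposited column of another kind, named Best, was not used, and 0 sample columns lacked a label. All 28644 rows entered edgeR 4.0.16 (R 4.3.3; TMM, filterByExpr, quasi-likelihood F-test, Benjamini-Hochberg adjustment over the 19353 rows passing the filter). CPM uses library sizes summed over the rows passing the filter, several of which can hold the same reads. The SE was taken as the size of the log2 fold change over sqrt(F), with 3 residual degrees of freedom before moderation. Alternatives used DESeq2 1.42.0, limma 3.58.1 on log2(FPKM + 1), other filters and scaling, and fits without each library. The fits were tested on simulated data. Members and lists were chosen with earlier results of these data known. All 36 members were accounted for; libraries were given for called members and those at the ends of the order, and called genes of the context lists were named. Some items withheld for evaluation are not reported here.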

Additional observations from a re-analysis of the deposited data

How the results depend on the processing

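No paired analysis was possible because the groups share no replicate numbers. Of 13 alternatives, those on FPKM and some of those without 1 library ended every call among the members. With log2(FPKM + 1), log2(FPKM + 0.1) and log2(FPKM + 1) at a mean FPKM of at least 1, limma called 0, 0 and 0 cytosolic genes (and 0 ATF4-induced ones) higher against 4, 0, 0 and 0 mitochondrial genes lower against 1, and 3, 3 and 4 genes of the ATF4 pathway higher against 12 and 0, 0 and 0 lower against 1; the cause was not tested. The medians there were -0.18, -0.22 and -0.18 for mitochondrial synthetases, 0.46, 0.47 and 0.46 for the ATF4 pathway, -0.11, -0.11 and -0.11 for other cytosolic synthetases, and 0.31 for the ATF4-induced ones with a pseudocount of 1, with either filter. Of all calls, 88.2%, 81.2% and 66.3% were higher there, against 59.4%. With no filter on low counts 2 mitochondrial genes were lower. Leaving out 1 library at a time gave 0 to 5 cytosolic genes (also 0 to 5 ATF4-induced) higher, 0 to 1 mitochondrial genes higher and 0 to 1 lower, and 6 to 14 ATF4 pathway genes higher and 0 to 1 lower. The medians then ranged from 0.12 to 0.25 (cytosolic), -0.35 to -0.18 (mitochondrial), 0.30 to 0.37 (ATF4-induced), 0.49 to 0.63 (ATF4 pathway) and -0.32 to -0.13 (helpers). A fit without 1 mutant assumes that the lone mutant varies like the controls. Signs turned only in uncalled genes: Eprs 0.0071 and Sars2 0.0085 with RLE scaling, Eprs 0.0052 and Sars2 0.0070 with DESeq2, and Eprs 0.016, Wars 0.00045 and Sars2 0.018 at a CPM of at least 5 in 2 libraries. On log2(FPKM + 1), with or without the filter, Tars was -0.17, Eprs 0.022, Wars 0.059, Rars2 0.094, Nars2 0.0022 and Aars2 0.066, and on log2(FPKM + 0.1) Tars was -0.18, Eprs 0.023, Wars 0.061, Rars2 0.099, Nars2 0.0013 and Aars2 0.097. Without single libraries the log2 fold change ranged from -0.085 to 0.25 in Hars, -0.045 to 0.11 in Iars, -0.11 to 0.12 in Tars, -0.083 to 0.070 in Eprs, -0.066 to 0.087 in Wars, -0.047 to 0.048 in Sars2, -0.084 to 0.032 in Rars2, -0.30 to 0.13 in Nars2, -0.23 to 0.0091 in Cars2 and -0.53 to 0.17 in Ears2. Low counts limit the mitochondrial genes, down to 39 counts in a library.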
